A study of Sus scrofa with 12 samples.

Results

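The ubiquitin-specific proteases (USP) and the ubiquitin-conjugating E2 enzymes (UBE2) were examined for N6-methyladenosine (m6A) peaks in boar spermatozoa taken fresh (Fs) or after freezing and thawing (Fts). The members were all RefSeq mRNA genes of the pig assembly Sscrofa11.1 with a USP or UBE2 symbol, which gave 80 of 20678 mRNA genes, 48 USP and 32 UBE2. The symbol rule also took USP6NL, a GTPase-activating protein that shares only its name with the proteases, and it took E2 enzymes that carry ubiquitin-like proteins, such as UBE2M. Spermatozoa of 3 mature Duroc boars were used. Each ejaculate had been split. One part was snap-frozen in liquid nitrogen for RNA extraction and served as Fs, and the other was cooled, extended in a lactose and hen's egg yolk medium with glycerol, frozen in straws over nitrogen vapour and thawed as Fts. Both groups shared breed, rRNA depletion, and the detergent treatment against somatic cells. Methylated RNA immunoprecipitation sequencing (MeRIP-seq) was carried out on 3 samples per group, each with its own input library, and the peaks of the 6 IP samples are described here. Libraries are called Fs1 to Fs3 and Fts1 to Fts3 by the number in their labels, and the labels did not say which boar or ejaculates a number stands for, so that p-values measure the spread between these samples.

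Ubiquitin is a small protein that an E1 enzyme activates, an E2 enzyme carries and an E3 ligase attaches to a target, and USPs take it off again. The system marks proteins for the proteasome, steers receptors through endosomes and sets signals on chromatin. In the male germ line it takes part in histone removal, acrosome formation and the shedding of organelles, and mature spermatozoa still hold proteasomes. The RNA of ejaculated sperm is mostly left over from spermatogenesis, and m6A is a mark laid on such RNA while it is made.

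A peak was a stretch of exon in which IP reads exceeded the input reads of that sample, and its score was 10 times -log10 of the peak caller's p. A score described a peak and was not a methylation level. It depends on the reads of the library and of the gene, and the peak lists gave no read counts, so the depth behind a peak is unknown here. By library, the paper's supplement lists fewer mapped IP reads in every Fts than in every Fs sample. Its mapped input reads were fewer in Fts1 and Fts2 than in any Fs sample. What part library depth had in the peak counts was not tested. Methylation and amount of RNA cannot be told apart in such a peak, nor can fewer cells of a type and less RNA per cell. The scale is the one the authors' column heading gives. The lowest score listed was 3.02 in each sample, which on this scale is a p of 0.499, so the lists hold many weak calls. Of the 332 peaks on the members, 165 (49.7%) had a p above 0.05, and over all peaks of a sample this share ran from 45.1% to 55.6%.

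A peak was found on 56 of the 80 members in at least 1 sample, on 37 USP and 19 UBE2 genes, where 56.6% of all mRNA genes had one. The members without a peak were 11 USP genes (USP14, USP18, USP22, USP26, USP27X, USP30, USP38, USP43, USP45, USP50 and USP51) and 13 UBE2 genes, such as UBE2A, UBE2B, UBE2D1, UBE2L3, UBE2Q1 and UBE2S. Among them were several genes known from male germ cells: UBE2A and UBE2B, which pair with ligases that ubiquitinate histones, USP26, a gene of the X chromosome expressed in testis, UBE2Q1, and USP14, a protease bound to the proteasome. A gene without a peak may be unmethylated or may have too few reads for a call, and the lists do not tell which.

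Whether cryopreserved sperm carried more peaks on these genes than fresh sperm was asked first over all members. Fs1, Fs2 and Fs3 held 31, 46 and 33 peaks on the members, and Fts1, Fts2 and Fts3 held 55, 82 and 85. Every Fts sample was above every Fs sample, with means of 36.7 ± 8.14 in Fs and 74 ± 16.5 in Fts (SD, n = 3). The difference was 37.3 peaks, a ratio of 2.02. The two-sided exact sign-flip test over the pairs of equal number gave p = 0.25, the smallest that 3 pairs allow, and the two-sided exact permutation of the 6 samples without pairs gave p = 0.1, the smallest that 3 against 3 allow. Neither exact test can therefore pass 0.05 with these samples. With a score of at least 20 or 50 the difference was 16.3 or 9.33 peaks, with a gap between the groups in both cases (exact permutation p = 0.1), and with an equal number of peaks taken from each sample it was 24.3. Of all peaks in a sample, 17.9%, 16.1% and 15.4% scored at least 50 in Fs and 20.5%, 27.2% and 22.2% in Fts. That share too was higher in every Fts than in every Fs sample.

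Peaks on mRNA genes as a whole were also more numerous in Fts, at 8482, 10369 and 10681 against 6818, 8819 and 8724 in Fs, a ratio of 1.21. Set against that total, the members took 4.55, 5.22 and 3.78 of every 1000 peaks in Fs and 6.48, 7.91 and 7.96 in Fts. Again no Fts sample fell within the range of Fs, and the mean difference was 2.94 ± 1.14 per 1000 (SD of 3 pair differences, exact sign-flip p = 0.25, exact permutation p = 0.1). The number of members with a peak was 20, 25 and 23 in Fs and 27, 35 and 40 in Fts, a difference of 11.3 ± 5.13 genes with the same p-values by both exact tests. Over all mRNA genes the number with a peak was 5254, 6393 and 6301 in Fs and 5548, 6132 and 6545 in Fts. There the groups overlapped. With a score of at least 50 the difference per 1000 was 1.54 and the groups overlapped (exact permutation p = 0.2). Summed over the samples of a group, 38 members had more peaks in Fts and 17 more in Fs, whereas 25.3% and 24.4% of all mRNA genes did so.

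**Figure D1:**
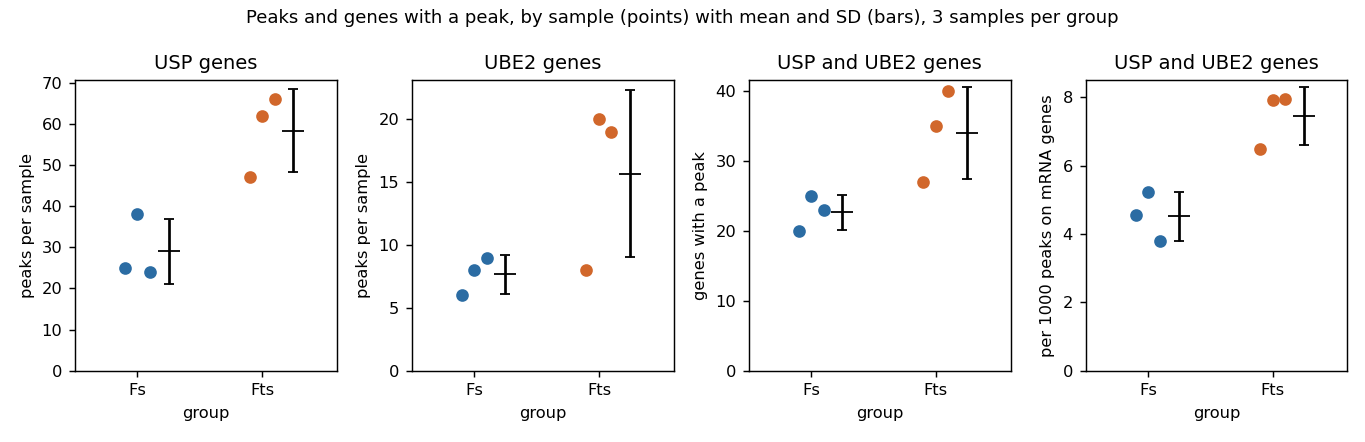
Peaks on USP genes, peaks on UBE2 genes, genes of both families with a peak, and peaks of both families per 1000 peaks on mRNA genes (y axes) in the 3 Fs and 3 Fts samples (points), with the mean and SD of each group as bars. The groups do not overlap in any panel but that of UBE2 peaks, where Fts1 with 8 peaks lies within the Fs range of 6 to 9.

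Both families showed the higher number. USP genes held 25, 38 and 24 peaks in Fs and 47, 62 and 66 in Fts, a ratio of 2.01. UBE2 genes held 6, 8 and 9 in Fs and 8, 20 and 19 in Fts, a ratio of 2.04. For UBE2 the groups overlapped in Fts1, and the exact permutation gave p = 0.3. The log2 ratio of Fts to Fs peaks was 1.03 ± 0.39 for USP and 0.94 ± 0.47 for UBE2, and the difference between the families of 0.09 ± 0.61 (SD, n = 3 pairs) gave an exact sign-flip p = 1.

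USP transcripts are long and UBE2 transcripts short, with medians of 5049 and 1506.5 nt against 2697 nt for all mRNA genes. Per kb of transcript, the mean number of peaks per sample was 0.106 (USP), 0.114 (UBE2) and 0.113 (all genes) in Fs, so that the families and the transcriptome lay side by side. In Fts the values were 0.214, 0.232 and 0.137. The share of genes with a peak grew with length in both the members and all genes. In transcripts under 2 kb a peak was found on 10 of 24 members and on 41.5% of all genes, and in those of 8 kb or more on 8 of 8 and on 80.5%. Within each of the 5 length classes the Fts to Fs ratio of the members, from 1.53 to 2.36, was above that of all genes of the class, from 1.13 to 1.30. The class of 4 to 6 kb, with the ratio of 2.36, held 9, 16 and 11 member peaks in Fs and 14, 34 and 37 in Fts. Of these, USP25 held 0, 0 and 1 in Fs and 5, 7 and 10 in Fts. USP7 held 0 in each Fs sample and 2, 7 and 3 in Fts. Ratios without single genes were not computed.

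**Figure D2:**
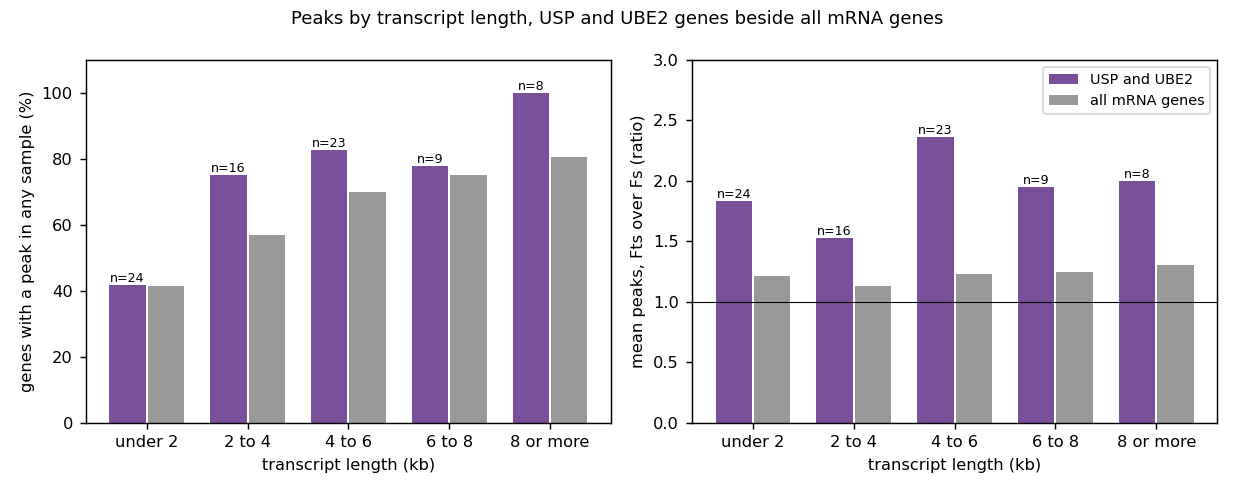
The left panel shows the share of genes with a peak in any sample (%) and the right panel the ratio of mean peaks in Fts to those in Fs, by transcript length in kb, for the USP and UBE2 genes (purple, n above the bars) and all mRNA genes (grey). The ratio of the members lies above that of all genes in each class, and the line marks a ratio of 1.

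Along the transcript, peaks of the members lay mostly in the coding sequence (CDS). Counting the midpoint of each peak and keeping 100 nt on either side of the start and stop codon as classes of their own, and leaving out 6 USP and 7 UBE2 peaks on exons outside the transcript with the longest CDS, the CDS held 71.4%, 79.5% and 68.8% of member peaks in Fs and 81.1%, 84.0% and 79.0% in Fts. Fs2 was above Fts3, so the groups overlapped, and the difference of 8.12 ± 3.23 percentage points had an exact sign-flip p = 0.25 and an exact permutation p = 0.2. Among peaks with a score of at least 20 or 50 the difference was 20.6 or 25.6 percentage points and the groups did not overlap (exact permutation p = 0.1). Over all genes the share at any score was 69.6% ± 0.67 in Fs and 73.9% ± 0.43 in Fts (SD, n = 3). It was not counted over all genes with a score of at least 20 or 50. The families differed in where their peaks sat. Of the USP peaks 87.5% lay in the CDS, 5.47% at the start codon, 1.56% at the stop codon and 3.91% in the 3'UTR, while of the UBE2 peaks 44.4% lay in the CDS, 23.8% at the start codon, 14.3% at the stop codon and 15.9% in the 3'UTR. These family shares pool the 6 samples and were not tested. UBE2 transcripts are the shorter, so that the codon classes cover more of them. Where a midpoint lay off the transcript, the middle of the longest part on it was counted. This placed the 3 UBE2D3 peaks, among the 9 UBE2 peaks at the stop codon, by 46 bp each. The annotated transcripts of UBE2D3, UBE2J1 and UBE2K hold no UTR.

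Single genes were then compared by the number of peaks in each sample. More peaks in every Fts than in every Fs sample were found on 10 members (12.5%), where 5.08% of all mRNA genes met the same rule. The opposite held for 1 member, against 3.03% of all genes. A peak in all 3 Fts and no Fs sample was found on 7 members, against 3.16% of all genes, and a peak in all 3 Fs and no Fts sample on 0, against 2.36%. Single genes were not tested, and these counts are descriptions.

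**Figure D3:**
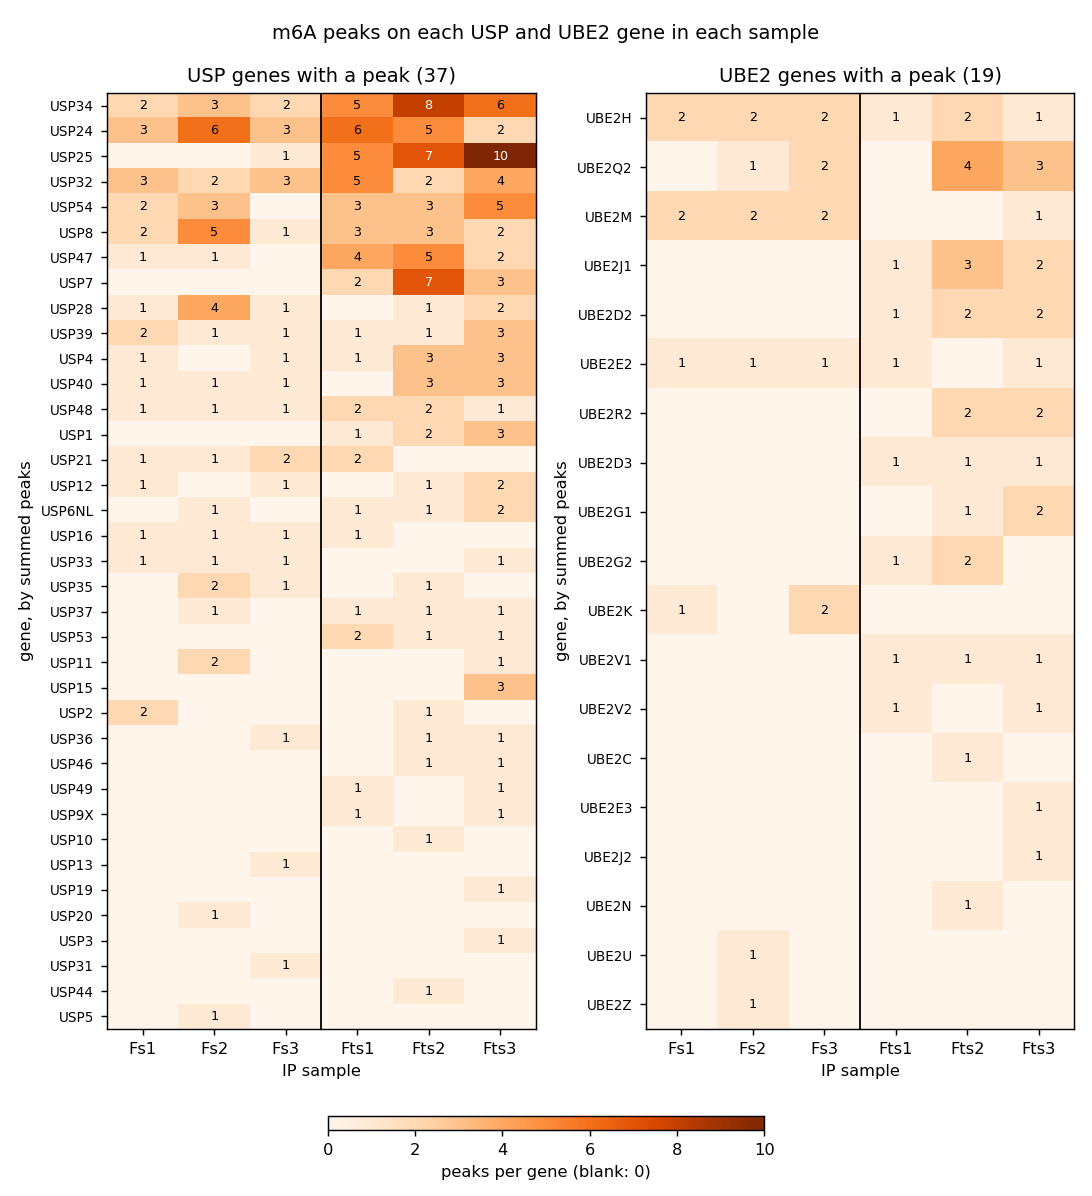
Number of m6A peaks (colour and digits) on each of the 37 USP and 19 UBE2 genes with a peak, in the 3 Fs and 3 Fts samples (columns, parted by the black line). USP25, USP7, USP1 and UBE2J1 are blank or nearly so in Fs and filled in Fts, while UBE2M is filled in Fs.

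The widest gap was on USP25 (chr13:180571019-180708966, plus strand), a protease that acts in endoplasmic reticulum quality control and immune signalling. USP25 had 0, 0 and 1 peak in Fs and 5, 7 and 10 in Fts. The single Fs peak lay in the 3'UTR, whereas the Fts peaks were spread over 10 of its 27 exons, from exon 3 to exon 26 and all in the CDS. Their scores were modest, with a highest score of 76.2 in exon 5. Some neighbouring peaks sit on both sides of an exon junction. Joined across junctions, USP25 had 4, 4 and 5 peaks in Fts and the same 0, 0 and 1 in Fs.

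USP7 (chr3:33754357-33810480, plus strand) removes ubiquitin from MDM2 and thereby acts on the stress response. It had no peak in any Fs sample and 2, 7 and 3 peaks in Fts. In exon 1, at the start codon, the scores were 48.2, 21.7 and 8.85 in Fts, and in exon 24 they were 10.9, 64.4 and 45.2. The remaining 5 regions of USP7 were found in Fts2 alone or in Fts2 and Fts3.

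USP34 (chr3:80330896-80589514, plus strand), a very large protease that acts on Wnt signalling through axin, had 2, 3 and 2 peaks in Fs and 5, 8 and 6 in Fts. It held the highest score of any member: the region in exon 14 of 80 scored 752, 1168 and 1013 in Fts and had no peak in Fs. Exon 15 next to it scored 38.0, 107 and 24.5 in Fts and 10.6 in Fs2 alone. Further regions of all 3 Fts samples alone lay in exons 41 and 49. In the same transcript exon 62 had a peak in all 3 Fs samples (10.6, 19.3 and 28.0) and in no Fts sample, and exon 29 scored 6.15, 136 and 61.1 in Fs and 203 and 204 in Fts2 and Fts3, with no peak in Fts1. USP34 thus held regions of both kinds.

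USP47 (chr2:47449162-47583893, minus strand), which acts on the DNA repair polymerase beta, had 1, 1 and 0 peaks in Fs and 4, 5 and 2 in Fts. Its region of all 3 Fts samples lay in exon 20, with scores of 6.49, 48.2 and 21.9. USP1 (chr6:149971471-149985946, minus strand) takes ubiquitin off FANCD2 and PCNA in DNA repair. It had none in Fs and 1, 2 and 3 in Fts, with scores of 17.6, 28.2 and 12.01 in exon 3. USP53 (chr8:104500204-104560711, minus strand), a protein of tight junctions, had none in Fs and 2, 1 and 1 in Fts, with scores of 9.95, 18.5 and 5.67 in exon 13.

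Of the UBE2 genes with more peaks in every Fts sample, UBE2J1 (chr1:57340622-57364263, minus strand) is an E2 enzyme of the endoplasmic reticulum that mice need for spermatid development. It had no peak in Fs and 1, 3 and 2 in Fts, and exon 5 scored 53.9, 9.11 and 81.5. UBE2D2 (chr2:141397937-141459821, plus strand) and UBE2D3 (chr8:118218224-118229002, plus strand) are close relatives that serve many ligases. UBE2D2 had 0 peaks in Fs and 1, 2 and 2 in Fts, and UBE2D3 had 0 in Fs and 1 in each Fts sample. At 33 positions, which may overlap, the coding sequence of UBE2D2 holds 25 bases in a row that UBE2D3 also holds. Some reads could thus be placed on either gene, so the values of both are uncertain. Whether the shared bases lie under the peaks was not tested. UBE2V1 (chr17:51630233-51664498, minus strand), an E2 variant without the catalytic cysteine that works with UBE2N, had 0 in Fs and 1 in each Fts sample, but at the start codon in Fts1 and in the 3'UTR in Fts2 and Fts3.

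The reverse order was found on UBE2M (chr6:63105532-63108615, minus strand), the E2 enzyme that carries NEDD8 to cullins. UBE2M had 2, 2 and 2 peaks in Fs and 0, 0 and 1 in Fts. Its start codon region in exon 1 scored 404, 155 and 471 in Fs and 377 in Fts3, so that Fts3 lay within the Fs range while Fts1 and Fts2 had no peak. The region at its 3' end scored 10.4, 5.35 and 93.1 in Fs, had no peak in Fts, and also overlaps an exon of CHMP2A on the same strand. Of this region's peaks, 59.7% (Fs1), 50.3% (Fs2) and 39.2% (Fs3) of the length lay on exons of UBE2M. With a part of at least 0.5 of a peak required there, the Fs3 peak was lost, and UBE2M no longer met the rule, with 1 peak in Fs3 and in Fts3.

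A peak in all 6 samples was found on 7 members (USP8, USP24, USP32, USP34, USP39, USP48 and UBE2H), where 7.65% of all mRNA genes had one. USP24 (chr6:157220521-157385329, plus strand), a large protease, had 3, 6 and 3 peaks in Fs and 6, 5 and 2 in Fts. USP32 (chr12:37720133-37944048, plus strand), a membrane-bound protease of the endosomal system, had 3, 2 and 3 in Fs and 5, 2 and 4 in Fts. USP8 (chr1:121306031-121376154, minus strand), which sorts receptors at endosomes and is found at the forming acrosome, had 2, 5 and 1 in Fs and 3, 3 and 2 in Fts. For these 3 genes the numbers of the groups overlapped. USP39 (chr3:59121381-59156597, minus strand), a splicing protein without protease activity, had 2, 1 and 1 in Fs and 1, 1 and 3 in Fts. UBE2H (chr18:18819612-18932909, plus strand), the E2 enzyme of the CTLH ligase, had 2 in each Fs sample and 1, 2 and 1 in Fts.

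**Figure D4:**
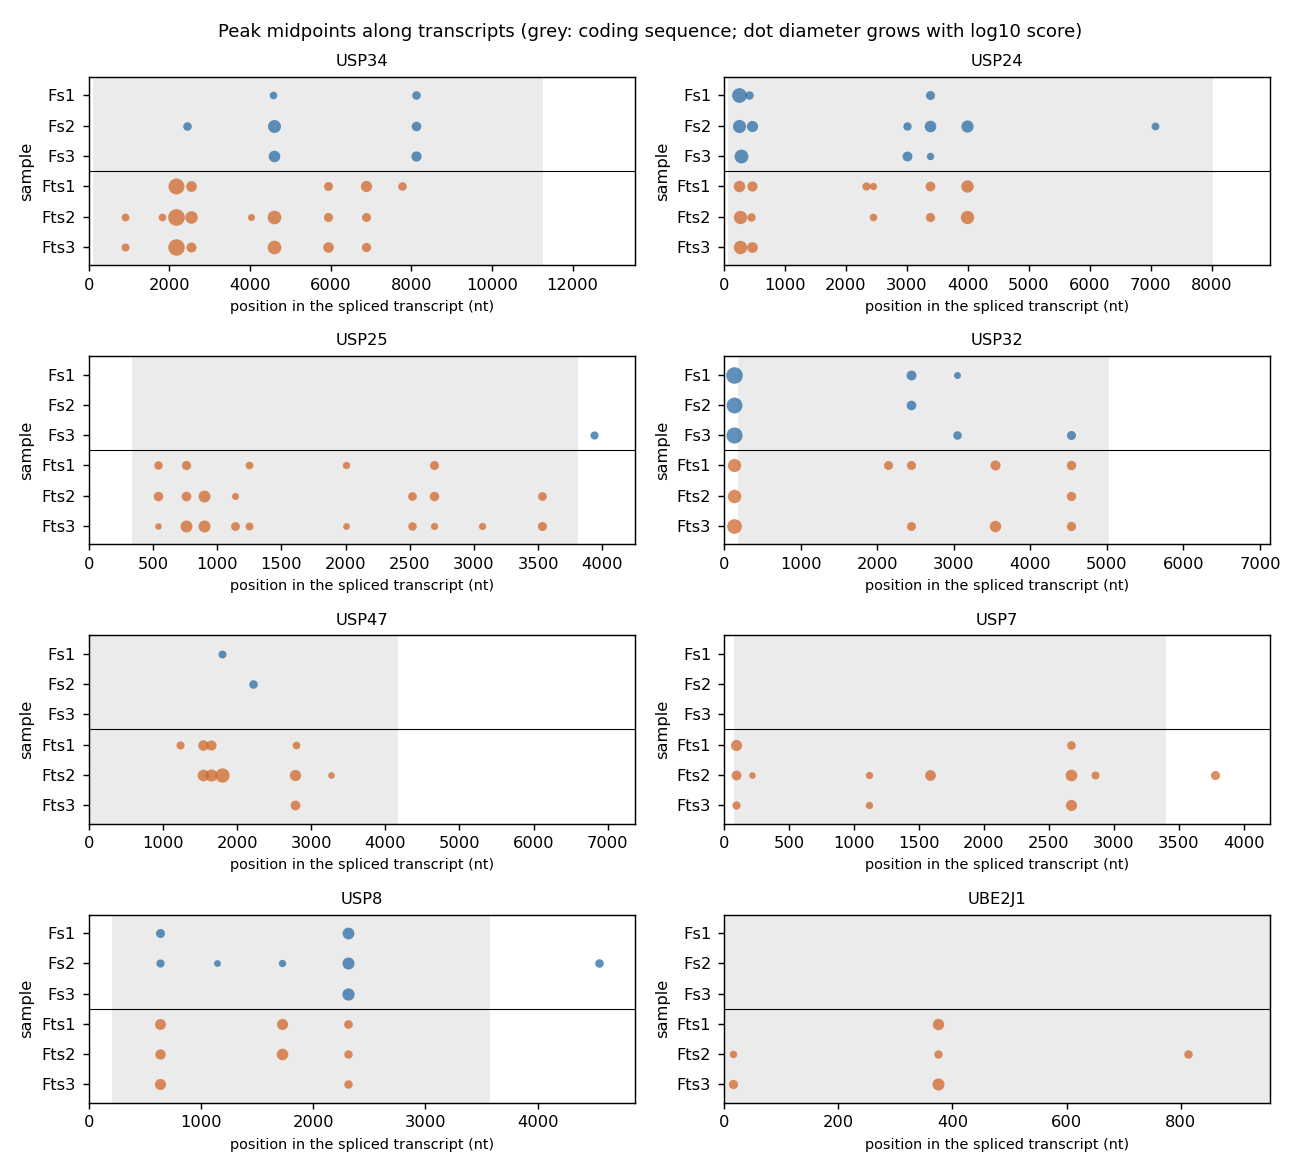
Midpoints of peaks (dots, wider with log10 score) along the spliced transcript in nt (x axis) for 7 USP genes and UBE2J1, 1 line per sample, Fs above and Fts below the black line, with the coding sequence in grey. USP25, USP7 and UBE2J1 have dots almost only in Fts, USP34 has its widest dots in Fts near 2170 nt, and USP32 has its widest at the 5' end in all 6 samples. USP24 also has a dot at the 5' end in all 6 samples, but in Fts1 and Fts2 its widest lies near 3983 nt.

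Regions were formed by merging overlapping peaks of the 6 samples, which gave 166 on the members and 26219 on all mRNA genes. Most were seen in few samples: 76 of the 166 occurred in 1 sample and 45 in 2. A peak in all 3 Fts and no Fs sample was found in 18 regions (10.8%), where 6.78% of all regions met that rule. A peak in all 3 Fs and no Fts sample was found in 5 (3.01%), near the 3.65% of all regions. In all 6 samples a peak was found in 5 (3.01%), near the 3.23% of all regions.

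**Figure D5:**
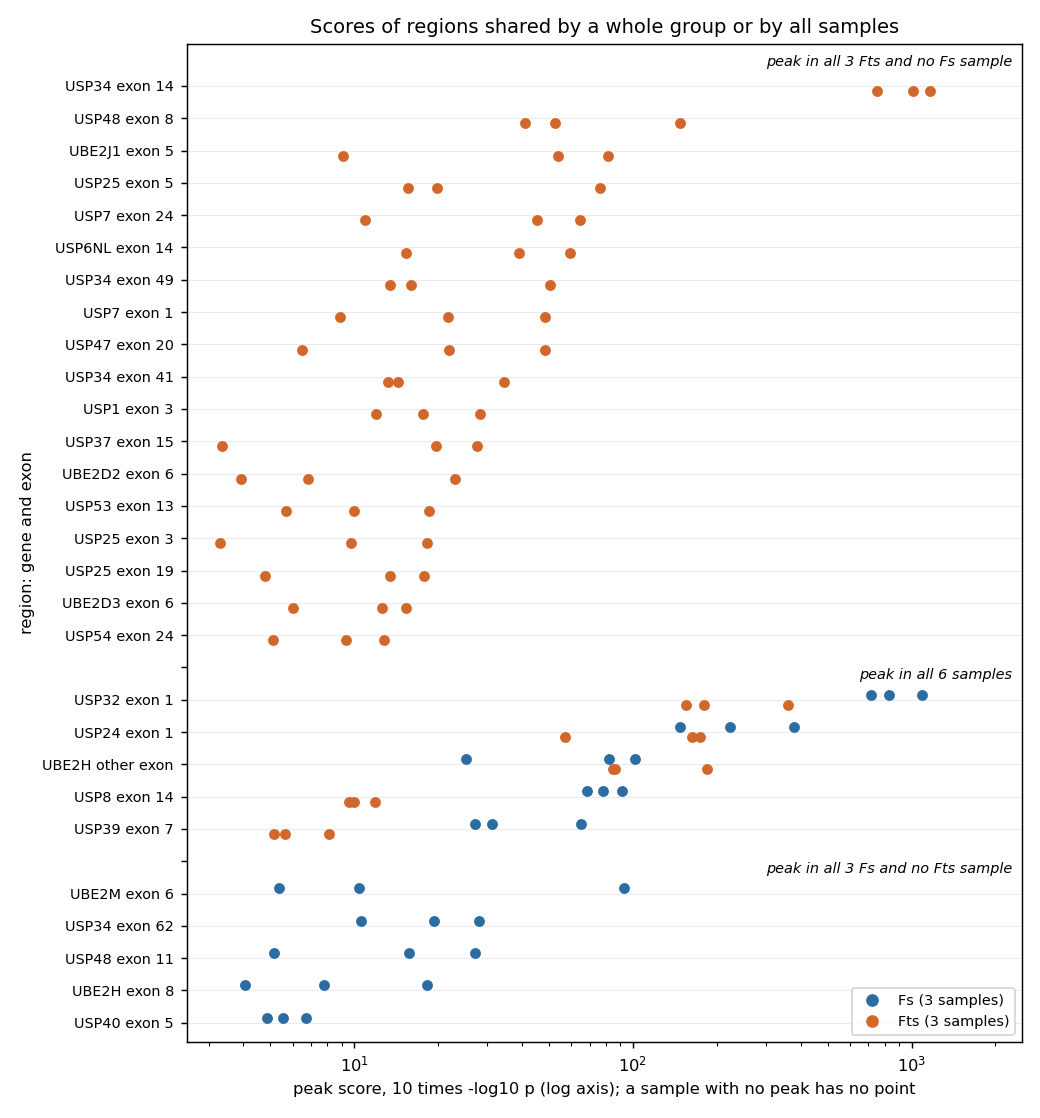
Peak scores (x axis, log scale) of the 18 regions with a peak in all 3 Fts and no Fs sample, the 5 in all 6 samples and the 5 in all 3 Fs and no Fts sample, with Fs in blue and Fts in orange. USP34 exon 14 lies far to the right of the other regions of its set, and in USP32, USP8 and USP39 the blue points lie to the right of the orange ones.

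The coding sequence under regions of all 3 Fts samples alone is shown for USP34 exon 14, which had the highest score of the members, for USP48 exon 8, and for UBE2J1 exon 5, the highest of a UBE2 gene in this set. Sequences are read from Sscrofa11.1 in the direction of the transcript, 5' to 3', and capitals mark the 5-letter words of the m6A consensus described after them.
USP34 exon 14, chr3:80428987-80429117, plus strand: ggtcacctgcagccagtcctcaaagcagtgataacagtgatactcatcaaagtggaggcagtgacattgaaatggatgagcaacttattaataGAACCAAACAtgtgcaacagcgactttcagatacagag
USP48 exon 8, chr6:79787142-79787224, minus strand: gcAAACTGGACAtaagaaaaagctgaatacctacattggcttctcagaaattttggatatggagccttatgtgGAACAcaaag
UBE2J1 exon 5, chr1:57351463-57351568, minus strand: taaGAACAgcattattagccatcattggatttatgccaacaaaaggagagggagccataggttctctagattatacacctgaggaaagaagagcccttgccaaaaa
USP48 exon 8 scored 40.9, 147 and 52.7 in Fts. The exon after it, exon 9, scored 207 and 637 in Fts1 and Fts2 and had no peak in Fts3 or Fs, and exon 11 had a peak in the 3 Fs samples alone. USP48 (chr6:79744928-79810241, minus strand), a nuclear protease, thus carried 1, 1 and 1 peaks in Fs and 2, 2 and 1 in Fts, in different exons.

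The regions of all 3 Fs samples alone are represented by USP48 exon 11, which scored 5.15, 15.8 and 27.2 in Fs, and by USP34 exon 62. Both come from transcripts that also hold regions of the Fts samples.
USP48 exon 11, chr6:79778589-79778738, minus strand: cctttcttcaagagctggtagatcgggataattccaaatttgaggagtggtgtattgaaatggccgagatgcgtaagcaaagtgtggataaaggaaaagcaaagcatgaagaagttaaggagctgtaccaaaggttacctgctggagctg
USP34 exon 62, chr3:80547355-80547506, plus strand: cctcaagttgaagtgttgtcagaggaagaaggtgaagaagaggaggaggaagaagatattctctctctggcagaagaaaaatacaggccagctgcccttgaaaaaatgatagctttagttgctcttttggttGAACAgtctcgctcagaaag
The other 3 regions of this set were USP40 exon 5 (6.70, 5.55 and 4.85), UBE2H exon 8 in the 3'UTR (18.2, 7.80 and 4.04) and the UBE2M 3' region. The highest scores of the 5 regions ran from 6.70 to 93.1, with a median of 27.2. Those of the 18 regions of the Fts samples ran from 12.8 to 1168 with a median of 41.4, and to 147 without USP34 exon 14.

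Of the 5 regions in all 6 samples, USP32 exon 1 at the start codon scored 1091, 713 and 832 in Fs and 155, 180 and 360 in Fts. USP8 exon 14 scored 68.6, 78.0 and 91.3 in Fs and 11.9, 9.54 and 10 in Fts. USP39 exon 7 scored 31.1, 27.0 and 64.9 in Fs and 5.14, 5.65 and 8.14 in Fts. In these 3 of 5 regions every Fs score was above every Fts score, which 22.8% of such regions over all genes showed, and in 0 of 5 was every Fts score above every Fs score, against 13.3%. USP24 exon 1 overlapped between the groups (379, 147 and 222 in Fs and 57.0, 163 and 174 in Fts), and so did a UBE2H exon outside its longest coding transcript (82.1, 102 and 25.2 in Fs and 86.0, 185 and 85.0 in Fts). The coding windows of USP8, USP39 and USP32 are shown because their scores parted the groups without a change in whether a peak was called.
USP8 exon 14, chr1:121320464-121320726, minus strand: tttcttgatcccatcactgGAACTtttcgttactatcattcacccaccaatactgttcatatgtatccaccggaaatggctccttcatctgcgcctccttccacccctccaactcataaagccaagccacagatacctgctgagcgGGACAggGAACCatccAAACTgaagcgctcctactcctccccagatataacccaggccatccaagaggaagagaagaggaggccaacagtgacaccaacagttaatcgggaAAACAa
USP39 exon 7, chr3:59137230-59137307, minus strand: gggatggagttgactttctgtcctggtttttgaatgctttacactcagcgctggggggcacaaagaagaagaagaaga
USP32 exon 1, chr12:37729284-37729341, plus strand: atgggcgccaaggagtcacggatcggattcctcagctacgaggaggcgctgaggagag
The USP32 window is the coding part of the region, which begins in the 5'UTR at chr12:37729098.

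Several high scores occurred in 1 or 2 samples only. USP40 exon 11 scored 843 in Fts2 and 417 in Fts3, and USP40 (chr15:133870831-133952863, minus strand) had 1, 1 and 1 peak in Fs and 0, 3 and 3 in Fts. UBE2G2 (chr13:207444529-207471826, minus strand), an E2 enzyme of protein degradation at the endoplasmic reticulum, scored 783 in exon 4 in Fts2 alone and had 0 peaks in Fs and 1, 2 and 0 in Fts. UBE2R2 (chr10:32894424-33014473, minus strand), an E2 enzyme of cullin ligases, scored 17.3 and 508 at its stop codon in Fts2 and Fts3. UBE2N (chr5:89673306-89716345, plus strand), which builds chains that serve signalling, had 1 peak in all, in Fts2, with a score of 368. The UBE2R2 region also overlaps an exon of UBAP2 on the other strand.
USP40 exon 11, chr15:133924880-133925171, minus strand: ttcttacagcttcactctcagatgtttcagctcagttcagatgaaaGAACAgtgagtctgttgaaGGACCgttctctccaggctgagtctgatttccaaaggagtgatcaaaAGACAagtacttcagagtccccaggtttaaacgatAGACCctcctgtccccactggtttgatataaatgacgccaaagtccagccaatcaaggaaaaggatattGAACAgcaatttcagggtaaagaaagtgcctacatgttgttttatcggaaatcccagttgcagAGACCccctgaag
UBE2G2 exon 4, chr13:207450405-207450523, minus strand: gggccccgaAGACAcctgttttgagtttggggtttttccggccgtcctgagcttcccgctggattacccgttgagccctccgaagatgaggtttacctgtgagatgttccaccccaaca
These windows are shown as the highest scores of members that were missing from part of the Fts samples.

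The consensus of m6A sites was searched as 12 words on the transcript strand, each with A or G in the first and in the second place, AC in the next places and A, C or T in the last, as in GGACT. The windows printed above held 2 (USP34 exon 14), 3 (USP48 exon 8), 1 (UBE2J1), 0 (USP48 exon 11), 1 (USP34 exon 62), 5 (USP8), 0 (USP39), 0 (USP32), 6 (USP40) and 1 (UBE2G2) of them. In windows of 101 nt around the middle of the 125 coding regions of members, 78.4% held at least 1 word, and 78.7% of 1661 windows tiled over the coding sequences of the members did so. Over all genes the shares were 78.3% of 18325 coding regions and 75.5% of the tiled windows. The 3 words that begin with GGAC were held by 34.4% of the coding regions of members and by 31.2% of their tiled windows, and on the opposite strand by 17.6% and 23.9%. Over all genes they were held by 32.9% of coding regions and 34.0% of tiled windows, and on the opposite strand by 24.4% and 26.0%. At this length the words are frequent everywhere, so their presence in a window says little about it.

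Of the members named for a role in male germ cells, USP7, USP8 and UBE2J1 are described above, and USP14, USP26, UBE2A, UBE2B and UBE2Q1 had no peak. USP2 (chr9:46563469-46590392, minus strand), whose loss lowers male fertility in mice, had 2, 0 and 0 peaks in Fs and 0, 1 and 0 in Fts. USP9X (chrX:36736049-36888702, plus strand), a large X-linked protease, had none in Fs and 1, 0 and 1 in Fts, both in exon 35 with scores of 68.7 and 69.1. USP44 (chr5:87864410-87890913, plus strand), a protease of the spindle checkpoint, had 1 peak, in Fts2. UBE2Q2 (chr7:56084017-56144915, plus strand), named for its number of peaks, had 0, 1 and 2 in Fs and 0, 4 and 3 in Fts, with overlap between the groups.

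USP54 (chr14:76307223-76439842, minus strand), with as many peaks in all as USP8, had 2, 3 and 0 in Fs and 3, 3 and 5 in Fts. UBE2E2 (chr13:9998097-10380564, plus strand) carried 1, 1 and 1 peaks in Fs and 1, 0 and 1 in Fts. In both genes the groups overlapped. The other 29 members with a peak, 21 USP and 8 UBE2 genes, had 1 to 9 peaks over the 6 samples. Of these, 16 had more peaks in Fts and 13 more in Fs, and none of them met the rule of more peaks in every sample of a group.

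The median score of member peaks was 10.6, 9.73 and 17.9 in Fs and 15.3, 15.5 and 11.8 in Fts. The samples of the groups overlapped, and the difference of 1.47 ± 6.57 had an exact sign-flip p = 1 and an exact permutation p = 0.8. The share of member peaks with a score of 50 or more was 20.0% ± 4.07 in Fs and 22.3% ± 3.94 in Fts, and over all peaks it was 16.5% ± 1.30 and 23.3% ± 3.47 (SD, n = 3).

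Other parts of the ubiquitin system were counted for context. Over all mRNA genes 56.6% had a peak, 5.08% had more in every Fts sample and 3.03% more in every Fs sample. The E1 enzymes had a peak on 7 of 9 genes, with 4, 4 and 2 peaks in Fs and 5, 3 and 5 in Fts, and 1 of them had more in every Fts sample. The deubiquitinases of other families had a peak on 19 of 33 genes, with 8, 12 and 14 peaks in Fs and 13, 21 and 24 in Fts, and 2 of them had more in every Fts sample. HECT ligases had a peak on 23 of 27 genes, with 27, 37 and 29 peaks in Fs and 36, 44 and 40 in Fts, and 3 genes met the rule in each direction. Cullins had one on 8 of 8 genes, with 6, 8 and 6 peaks in Fs and 5, 9 and 11 in Fts. Proteasome subunits had one on 26 of 36 genes, with 11, 13 and 11 in Fs and 11, 14 and 14 in Fts, and 2 of them had more in every Fs sample. The ranges of Fs and Fts overlapped in each of these lists.

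Markers of cell types were read in the same way. Of the sperm markers 7 of 14 had a peak, with 4, 3 and 5 peaks in Fs and 4, 5 and 5 in Fts, while PRM1, TNP1, ODF1, AKAP4, SMCP, TSSK2 and TSSK6 had none. ACR, the acrosomal protease acrosin, had 2 peaks in every Fs sample and 0 in every Fts sample. AKAP3 had 2, 1 and 3 in Fs and 0, 0 and 1 in Fts. The remaining sperm markers with a peak, PRM2, PRM3, TNP2, ODF2 and CRISP2, had theirs in Fts samples alone, with 3, 3 and 0 on ODF2. Of the epithelial markers 3 of 5 had one, with 0, 1 and 2 peaks in Fs and 5, 5 and 4 in Fts. KRT8 alone had 0 in every Fs sample and 3, 4 and 2 in Fts, while EPCAM and KRT5 had none. KRT18 had 0, 0 and 1 in Fs and 2, 1 and 1 in Fts, and CDH1 had 0, 1 and 1 in Fs and 0, 0 and 1 in Fts. No other sperm or epithelial marker met the rule of more peaks in every sample of a group. The peaks of ACR and KRT8 moved with the group, in opposite directions, and their part in the result was not tested. Both were named after their values were seen. Leukocyte markers had 0, 2 and 3 peaks in Fs and 1, 2 and 2 in Fts on 4 of 6 genes, with none on CD14 or CSF1R. Markers of Sertoli and Leydig cells had 0, 1 and 0 in Fs and 1, 2 and 1 in Fts on 3 of 5 genes. Among them SOX9 had 0 in every Fs sample and 1 in every Fts sample, and so met the rule too. STAR had 1 peak, in Fs2, CYP17A1 had 1, in Fts2, and AMH and INHA had none. SOX9 was also named after its values were seen, and its part in the result was not tested. A marker can carry a peak or none at any level, so these counts do not check the labelled cell type.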

How the data were processed

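MeRIP-seq was done on 3 Fs and 3 Fts samples. The authors trimmed reads with cutadapt v1.9.3, aligned them with Hisat2 to susScr11 (Sscrofa11.1), and called peaks per sample with MACS against the input of that sample, not on pooled samples. Their own program kept peaks on mRNAs. The deposited value of a peak is a score, 10 times -log10 p. The list of differential sites holds the authors' own comparison and was not used. Reads were not analysed here, and the aligned depth is not in the lists.

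Peaks were placed on RefSeq mRNAs of Sscrofa11.1 (Annotation Release 106) by an overlap of at least 1 bp on the same strand. Features used the midpoint on the transcript with the longest CDS, with 100 nt around each codon. For a midpoint off that transcript, the middle of the longest part on it was used. No peak lay outside the assembly, and 84.4% to 90.1% of a sample's peaks lay on mRNA exons. Regions merged overlapping peaks. Tests were two-sided exact sign-flip tests over pairs of equal number and, as an alternative, exact permutations without pairs. Alternatives were a score of at least 20 or 50, an equal number of peaks per sample, the overlap, strand, junctions, transcript, codon classes and the omission of samples. The members, lists and named genes were chosen with earlier results of these data known. Genes were named for groups that did not overlap, the 5 highest numbers of peaks or scores per family, a peak in all 6 samples, or a role in male germ cells. USP9Y and USP42 were not among the annotated members. The code was tested on simulated peaks (Python 3.11.15, numpy 2.4.6).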

Additional observations from a re-analysis of the deposited data

How the results depend on the processing

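The exact tests used for the 8 differences between Fs and Fts cannot pass 0.05 with 3 samples a group, so directions and sizes were compared. Those in peaks, in genes with a peak, in peaks per 1000 and in the CDS share kept their direction under every alternative run, but not their size. With a score of at least 50 the difference in peaks went from 37.3 to 9.33 (USP from 29.3 to 7.67, UBE2 from 8 to 1.67), that in genes with a peak from 11.3 to 5.67, that per 1000 from 2.94 to 1.54, and that in the CDS share from 8.12 to 25.6 percentage points. With an equal number of peaks per sample the difference in peaks was 24.3, and with peaks joined across junctions 27.3. The median score turned, to -6.99 with a score of at least 20 and -82.1 with one of at least 50, and it ran from -0.68 to 5.25 without 1 replicate number. The difference between the families turned as well, to -0.085 with an equal number of 8015 peaks per sample and -0.015 with peaks joined across junctions, and ran from -0.12 to 0.44 without 1 replicate number. The count of members with more peaks in every Fts sample was 3 with a score of at least 20 and 2 with one of at least 50. It was 9 with at least 0.5 of the peak on exons, and 12 to 17 without 1 replicate number. The share of all mRNA genes was not counted at these settings. With more in every Fs sample it was 0 with a score of at least 50 and 0 with at least 0.5 of the peak on exons, and 2 to 3 without 1 number. A peak in all samples was found on 4 members with a score of at least 20, on 2 with one of at least 50, and on 9 to 10 without 1 number. Leaving out single samples was added after seeing the data. It moved the first count from 10 to 16 without Fts1, 14 without Fts2, 13 without Fs2 and 12 without Fts3. The second went from 1 to 3 without Fts1 and to 2 without Fs2, Fts2 or Fts3, and the third from 7 to between 7 and 9. Fewer samples make these rules easier to meet.

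No test could pass 0.05 with or without the replicate block, so the block could change no call. Without pairs the exact permutation gave p = 0.1 for peaks on the members, with the same difference of 37.3. Deviations of equal-numbered samples correlated at 0.01, -0.01 and 0.01 over 11705 genes, and not every sample correlated best with its own number, so the numbers are not shown to pair the samples. Of the peaks on the members 49.7% had a p above 0.05, on the scale of the authors' heading, and depth per gene is unknown, so that the absence of a peak is not the absence of the mark.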
